A study of Mus musculus with 8 samples.

Results

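Cells that the study calls leukemic stem cells (LSCs) came from mice with chronic myeloid leukemia (CML). The mice were untreated or given the tyrosine kinase inhibitor (TKI) imatinib (IM). Examined were 10 genes for surface receptors, adhesion molecules and an enzyme that hematopoietic stem cells share with blood vessel endothelium. They were the angiopoietin receptor genes Tek and Tie1, the vascular endothelial growth factor (VEGF) receptor genes Kdr and Flt4, the co-receptor genes Eng and Ramp2, the protein C receptor gene Procr, the junction protein genes Cdh5 and Esam, and the sulfotransferase gene Chst2. The genes were picked by symbol with the CML-TKI against CML difference already known, and all 10 were found among the 15576 rows of the deposited table. Their values in that comparison are therefore given as a description, without a test.

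The libraries came from bone marrow of C57BL/6 mice carrying BCR-ABL and SCL-tTA, in which stem cell-directed tTA switches BCR-ABL on once tetracycline is withdrawn. 4 samples from untreated mice (CML) and 4 samples from CML mice given 400 mg/kg IM by gavage on alternate days (CML-TKI) were profiled by bulk RNA-seq. The labels state 30 days of treatment in the protocol and 4 weeks elsewhere. The dose is that of the labels, and the study's own text also gives a lower dose for the sequenced LSCs. Both groups carry both transgenes, so no library without BCR-ABL entered the comparison. The labels give no ages and do not say that the libraries came from separate animals, so the p-values below measure only the spread between these samples, which may be technical.

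CML totals ran from 4939640 to 8620100 counts and CML-TKI totals from 1041550 to 5104270 counts. The ribosomal RNA gene Rn45s took 20.2% to 38.3% of the CML and 9.23% to 22.5% of the CML-TKI counts. Levels are given as CPM (counts scaled to a common library size) after TMM normalization, which scales libraries to one another by the bulk of the genes. A count of 0, which allows up to 3 counts, allows 0.406 to 0.576 CPM in the CML libraries and 0.566 to 3.27 CPM in the CML-TKI libraries, with the highest limit in CML-TKI 3, and these limits cover counting error only. One CML column bears the number 5, which no label gives, and is called CML 5.

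The labels describe the sorted cells as Lin-Sca1+cKit+Flt3-CD150-CD48+ in all 8 libraries, while the study's text defines LSCs as CD150+ and CD48-. Slamf1, which encodes CD150, had 28.8 to 37.5 CPM in the CML libraries and 0.616 to 6.53 CPM in the CML-TKI libraries and fell by 3.42 on the log2 scale (standard error 0.61, Benjamini-Hochberg adjusted p = 0.00797 by the quasi-likelihood test of edgeR). Cd48 had 3.84 to 6.36 CPM in CML and 39.6 to 177.03 CPM in CML-TKI and rose by 4.35 (standard error 0.47, adjusted p = 0.00087 by the same test). The labels give one gate for both groups, while the transcripts of both gate proteins differed between the groups in opposite directions. Kit, the stem cell factor receptor gene of the gate, had 758.98 to 1016.6 CPM in CML and 193.04 to 288.5 CPM in CML-TKI and fell by 1.92 (adjusted p = 0.00087 by edgeR). With CML 1 to 3 summed to 1 library, adjusted p was 0.134 for Slamf1, 0.034 for Cd48 and 0.0385 for Kit by edgeR. In bulk samples, fewer cells of a type and less RNA per cell cannot be told apart.

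Blood and endothelium arise from closely related embryonic precursors, and adult hematopoietic stem cells keep several receptors that are best known from vessels. TEK (TIE2) binds angiopoietins made by the niche and is linked to stem cell quiescence, and TIE1 is its orphan partner. KDR and FLT4 bind VEGF ligands and are classic receptors of blood and lymphatic endothelium, while endoglin, ESAM and the protein C receptor (EPCR) are used as surface markers for isolating long-term hematopoietic stem cells. VE-cadherin, encoded by Cdh5, is the adhesion molecule of endothelial adherens junctions.

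Promoter sequence was available from RefSeq (GRCm38.p6) for 7 of the 10 genes, with no entry used for Cdh5, Esam and Ramp2. For Tie1, Eng, Flt4 and Chst2, the 100 bases just before the annotated start are shown, 5′ to 3′ on the gene's strand. These genes were picked by their levels. Tie1 and Eng were even across the CML libraries, and Flt4 and Chst2 had 8 and 1 counts in all CML-TKI libraries together. Capitals mark GGAA on either strand (GGAA or TTCC), the core letters bound by ETS factors such as FLI1 and ERG.
Tie1: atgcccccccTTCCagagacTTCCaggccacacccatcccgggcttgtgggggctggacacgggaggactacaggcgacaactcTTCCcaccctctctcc
Eng: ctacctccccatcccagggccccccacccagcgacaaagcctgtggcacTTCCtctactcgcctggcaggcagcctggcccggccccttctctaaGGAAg
Flt4: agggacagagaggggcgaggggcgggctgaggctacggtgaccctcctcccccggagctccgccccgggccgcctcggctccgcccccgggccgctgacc
Chst2: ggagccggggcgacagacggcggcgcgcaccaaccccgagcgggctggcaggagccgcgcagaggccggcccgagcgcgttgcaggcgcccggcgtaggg

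These windows lie at chr4:118489850-118489949 on the minus strand for Tie1, chr2:32646495-32646594 on the plus strand for Eng, chr11:49609579-49609678 on the plus strand for Flt4 and chr9:95407271-95407370 on the minus strand for Chst2. The Tie1 window held 3 matches to GGAA and the Eng window 2, while the Flt4 and Chst2 windows held 0. Of the windows not shown, that of Tek held 2, that of Procr 1 and that of Kdr 0. Over 250 bases, the counts were 7 for Tie1, 4 for Kdr, 3 for Eng, 3 for Procr, 2 for Tek, 2 for Flt4 and 0 for Chst2. For Kdr, Procr and Tek, these bases lie wholly or partly inside the outermost bounds of the gene, because the start used by the promoter table is not the outermost one. Of all 32851 mouse promoters in the same table, 66.8% held GGAA in 100 bases and 93.4% in 250 bases. AGATAA, a motif of GATA factors, was in none of the 7 promoters over 250 bases and in 9.99% of all promoters. A match is a run of letters and not a measured binding site.

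Per kilobase of transcript, the order of the 10 genes in CML LSCs began with Tie1 at 62.02 ± 12.6 CPM per kb (SD, n = 4), Esam at 56.4 ± 13.7 and Eng at 50.4 ± 8.94. Tek followed at 15.995 ± 3.24 and Procr at 10.9997 ± 2.95, and then Kdr at 6.63 ± 4.10, Cdh5 at 5.57 ± 4.98, Flt4 at 5.55 ± 4.99, Chst2 at 2.50 ± 1.23 and Ramp2 at 1.23 ± 0.50. Of the 9 pairs of neighbours in this order, the 4 libraries of Eng and Tek did not overlap, and the ranges of the other 8 pairs overlapped. The length used for Chst2 comes from a transcript longer than its RefSeq gene span, so that its level per kb is approximate.

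For 8 of the 10 genes, every CML-TKI library lay below the whole range of the CML libraries, as for 13.1% of all 11937 genes tested. The exceptions were Kdr and Ramp2. 9 of the genes passed the filter on low counts, which asks for about 2.01 CPM in 4 libraries, and Ramp2 did not. Eng was above that level in all 4 CML-TKI libraries, Tek, Tie1 and Kdr in 3, Esam and Procr in 2, and Cdh5, Flt4 and Chst2 in 0, so that 8 of the 9 passed only through their CML libraries. Across these 9 genes, the median fitted log2 fold change was -3.55 (-0.00029 over all genes tested), 9 of 9 were below 0 (50.0% of all genes) and 8 were at or below -2 (4.71% of all genes). Because the genes were chosen on this contrast, nothing is read from these shares. The plot of all members by library shows the levels behind these counts.

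**Figure D1:**
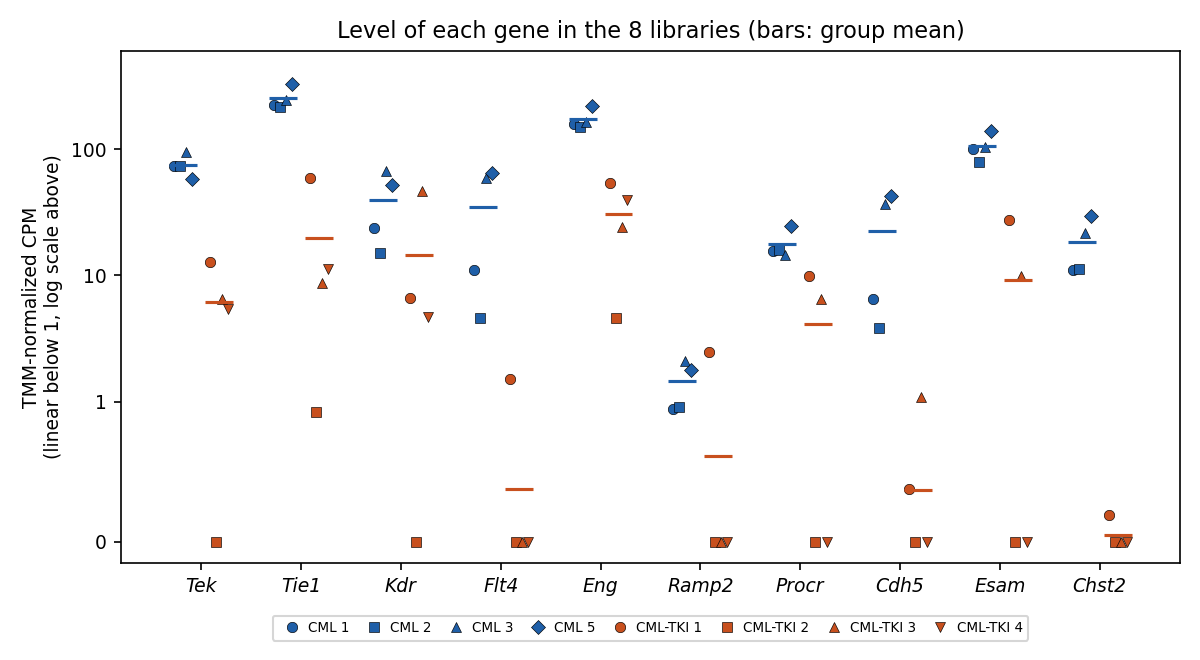
TMM-normalized CPM of each of the 10 genes in each library, on an axis that is linear below 1 and logarithmic above. Blue symbols are the 4 CML libraries, orange symbols the 4 CML-TKI libraries and bars the group means. Tie1, Eng, Tek and Esam lie above 50 CPM in every CML library, and 8 of the 10 genes are at 0 in CML-TKI 2.

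Of the angiopoietin receptors, Tek lies at chr4:94739086-94874976 (GRCm38) and had 73.5, 72.9, 94.1 and 57.4 CPM in CML libraries 1, 2, 3 and 5. In CML-TKI libraries 1 to 4 it had 12.8, 0, 6.53 and 5.43 CPM. All CML libraries stood above all CML-TKI libraries, and the lowest CML library was CML 5. The means were 74.4 ± 15.1 and 6.20 ± 5.26 CPM (SD, n = 4 each), a log2 fold change of -3.55 with a standard error of 0.77.

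Tie1, first in the order per kb, lies at chr4:118471191-118489849 and had 224.05, 215.5, 246.5 and 328.8 CPM in CML libraries 1, 2, 3 and 5. It had 58.7, 0.924, 8.71 and 11.1 CPM in CML-TKI libraries 1 to 4. The groups did not overlap, and CML-TKI 1 stood well above the other CML-TKI libraries. Means of 253.7 ± 51.7 and 19.9 ± 26.2 CPM gave a log2 fold change of -3.60 with a standard error of 0.85, which was -5.24 without CML-TKI 1.

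Kdr encodes VEGF receptor 2, the main signalling receptor of blood vessel endothelium, and lies at chr5:75932827-75979072. It had 23.5, 14.96, 67.2 and 51.5 CPM in CML libraries 1, 2, 3 and 5 and 6.60, 0, 46.8 and 4.65 CPM in CML-TKI libraries 1 to 4. The groups overlapped, because CML-TKI 3 lay above CML 1 and CML 2 and reached 119.1% of the CML mean. The log2 fold change was -1.61 with a standard error of 1.10, it was -3.33 without CML-TKI 3 and -0.51 without CML 3 and CML 5.

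Flt4 encodes VEGF receptor 3, which is typical of lymphatic and sinusoidal endothelium, and lies at chr11:49609679-49652739. Its CML libraries 1, 2, 3 and 5 had 11.1, 4.60, 59.1 and 64.1 CPM. Among the CML-TKI libraries, CML-TKI 1 had 1.51 CPM and the others had 0. In counts these were 883 in all CML libraries together against 8, all of them in CML-TKI 1, a ratio of 58.6 relative to library size with a 95% interval of 29.6 to 136.1 for counting error only. The highest CML library was 13.9 times the lowest, a spread that 0.275% of the 10553 genes with a mean of at least 5 CPM in CML reached. The fitted log2 fold change was -5.98 with a standard error of 1.24. It was -3.99 without CML 3 and CML 5, and -10.4 without CML-TKI 1, where all remaining CML-TKI libraries are at 0 and the fitted value depends on the prior count.

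Eng encodes endoglin, a co-receptor for BMP9 and TGF-beta family ligands, and lies at chr2:32646595-32682669. It had 157.6, 149.8, 164.5 and 217.3 CPM in CML libraries 1, 2, 3 and 5 and 53.8, 4.62, 24.0 and 39.3 CPM in CML-TKI libraries 1 to 4. No CML-TKI library reached the CML range, and CML-TKI 2 was the lowest. Eng was the only one of the 10 genes above the 3-count limit in all 4 CML-TKI libraries. The means were 172.3 ± 30.6 and 30.4 ± 21.1 CPM, with a log2 fold change of -2.48 and a standard error of 0.56.

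Ramp2 encodes the accessory protein that turns the calcitonin receptor-like receptor into an adrenomedullin receptor, and lies at chr11:101246334-101248250. It was barely detected, with 0.947, 0.959, 2.11 and 1.78 CPM in CML libraries 1, 2, 3 and 5, and 2.45 CPM in CML-TKI 1 with 0 in the other CML-TKI libraries. The highest value of all 8 libraries was that of CML-TKI 1, so the groups overlapped. These levels rest on 5 to 13 counts per library where Ramp2 was seen, and no fold change was fitted.

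Procr, at chr2:155751125-155755478, encodes the receptor on which protein C is activated and which marks quiescent stem cells. It had 15.6, 15.7, 14.4 and 24.6 CPM in CML libraries 1, 2, 3 and 5 and 9.81, 0, 6.53 and 0 CPM in CML-TKI libraries 1 to 4. As a ratio, the lowest CML library stood above the highest CML-TKI library by less than for the other genes whose groups did not overlap. CML-TKI 1 kept 55.9% and CML-TKI 3 37.2% of the CML mean. The log2 fold change was -2.14 with a standard error of 1.13, and -3.94 without CML-TKI 1.

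Cdh5, at chr8:104101613-104144504, had 6.49, 3.84, 36.5 and 42.2 CPM in CML libraries 1, 2, 3 and 5. In CML-TKI libraries 1 to 4 it had 0.377, 0, 1.09 and 0 CPM. Every CML-TKI library was at or under 3 counts, and CML 3 and CML 5 stood far above CML 1 and CML 2. Over all libraries there were 567 counts in CML and 3 in CML-TKI, a ratio of 100.3 with a 95% counting interval of 34.1 to 487.7. The fitted log2 fold change was -6.43 (standard error 1.23) and moved to -4.21 without CML 3 and CML 5. The spread of 11.005 times between its highest and lowest CML library was reached by 0.379% of genes.

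Esam, at chr9:37528089-37538319, encodes an immunoglobulin-like adhesion molecule of endothelial tight junctions and platelets. It had 99.2, 78.4, 103.1 and 139.7 CPM in CML libraries 1, 2, 3 and 5 and 27.2, 0, 9.80 and 0 CPM in CML-TKI libraries 1 to 4. As for Tek and Tie1, the CML libraries were close to each other and the CML-TKI libraries were all below them. Means of 105.1 ± 25.5 and 9.24 ± 12.8 CPM gave a log2 fold change of -3.47 with a standard error of 1.13, which became -6.13 without CML-TKI 1.

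Chst2 encodes a Golgi sulfotransferase that places sulfate on N-acetylglucosamine, as in the sulfated glycans of selectin ligands, and lies at chr9:95400926-95407270. It had 11.1, 11.1, 21.5 and 29.6 CPM in CML libraries 1, 2, 3 and 5, and 0.189 CPM in CML-TKI 1 with 0 in the other CML-TKI libraries. This was the most complete separation of the 10 genes, with 469 counts in CML against a single count in CML-TKI. The ratio was 248.8 with a 95% counting interval of 44.4 to 9848. The fitted log2 fold change of -7.55 (standard error 0.87) depends on the prior count, and was -6.73 with a prior count of 0.5 and -5.88 by limma-voom.

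Within CML-TKI, the 9 tested genes did not go down to the same share of the CML level. CML-TKI 1 kept between 1.03% (Chst2) and 55.9% (Procr) of the CML mean, and it was the highest CML-TKI library for 8 of the 10 genes. Among all genes tested it was the highest CML-TKI library for 31.1%, and among the 1562 genes lower in every CML-TKI library for 49.3%. CML-TKI 2 was at 0 for 8 of the 10 genes and kept 0.364% of the CML mean of Tie1 and 2.68% of that of Eng. CML-TKI 4 kept 22.8% of Eng, 11.8% of Kdr, 7.29% of Tek and 4.38% of Tie1, with 0 counts of Flt4, Procr, Cdh5, Esam and Chst2. The plot of the CML-TKI libraries in percent of the CML mean shows this order.

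**Figure D2:**
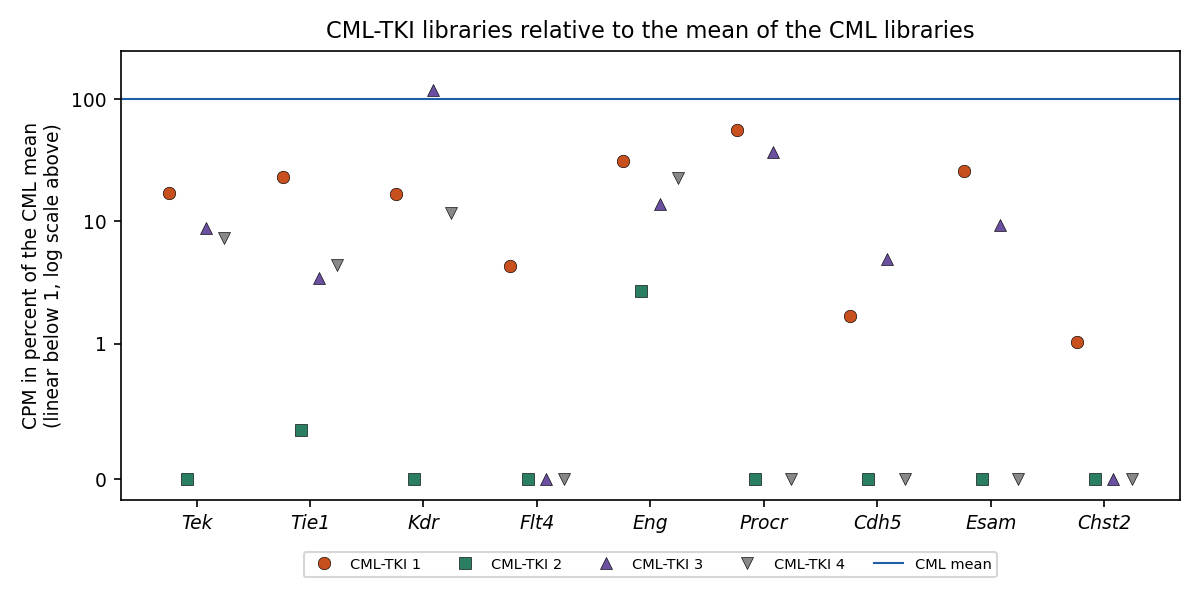
CPM of 9 genes in each CML-TKI library in percent of the mean of the 4 CML libraries (blue line at 100), on an axis that is linear below 1 and logarithmic above. Kdr in CML-TKI 3 is the one point above the line, at 119.1%, and Flt4 and Chst2 have a point above 0 in CML-TKI 1 alone.

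The CML libraries differed among themselves in 3 of the 10 genes far more than in the rest. The highest CML library was at least 4 times the lowest for Flt4, Cdh5 and Kdr (13.9, 11.005 and 4.49 times), as for 4.22% of the 10553 genes with a mean CML level of at least 5 CPM. Chst2 was intermediate at 2.67 times, and Esam, Procr, Tek, Tie1 and Eng were between 1.45 and 1.78 times, near the median of 1.59 over those genes. CML 3 and CML 5 were the highest 2 CML libraries for 8 of the 10 genes and for 17.0% of all genes tested, with Tek and Procr as the exceptions.

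The same libraries held the most endothelial marker RNA. Of 22 endothelial markers that are not used as stem cell genes, 20 had a row, and their summed level was 71.98, 51.0, 324.7 and 352.1 CPM in CML libraries 1, 2, 3 and 5. CML 3 and CML 5 were the highest 2 for 17 of the 19 markers with a count in CML, and 11 of the 16 seen in all CML libraries spread by at least 4 times. Stab2, a scavenger receptor of sinusoidal endothelium, had 23.5, 15.7, 135.5 and 90.1 CPM, and Cldn5, a tight junction claudin, had 1.22, 0.767, 10.9 and 26.8 CPM in the same order. No marker was at 0 in all CML libraries except Prox1, the lymphatic regulator, and 1 to 4 of the 20 were at 0 in each CML library.

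In the CML-TKI libraries 1 to 4, the summed endothelial markers were 86.0, 18.8, 148.1 and 20.2 CPM, with 3, 18, 9 and 16 of the 20 markers at 0. Of these sums, Ly6c1 alone made up 19.8, 17.9, 22.9 and 9.30 CPM, against 0 to 1.09 CPM in the CML libraries. CML-TKI 3, the library with the high Kdr level, had 62.1 CPM of Stab2 and 29.4 CPM of Ptprb, but its Cdh5 level was 1.09 CPM and its Flt4 and Cldn5 counts were 0. In CML-TKI 1, Prox1 had 13.96 CPM and Flt1, the gene of VEGF receptor 1, 25.9 CPM. In the same library, Stab2 had 0.189 CPM, Sox18 0.566 CPM and Cldn5 0. Of the 10 markers that passed the filter, Sox18 fell by 4.49 on the log2 scale (standard error 1.12) and Ly6c1 rose by 5.41 (standard error 1.003), with adjusted p = 0.033 and adjusted p = 0.0096 by edgeR. These were the only 2 of the 10 markers past edgeR's threshold, where 3.93% of all genes fell and 6.29% rose. The median log2 fold change of the 10 was -2.39, and 5 of the markers were below the CML range in all CML-TKI libraries (13.1% of all genes). At an unadjusted p under 0.05, 5 were lower and 1 higher, with 2 and 1 by DESeq2 and 3 and 1 by limma-voom. Of all genes, 12.1%, 8.6% and 11% were lower and 13.7%, 9.89% and 10.5% higher by these rules. Sox18 lost its call when any 1 library other than CML-TKI 1 was left out (adjusted p from 0.017 to 0.0891 over the 8 libraries), while Ly6c1 kept it in all 8 cases but not with CML 1 to 3 summed (adjusted p = 0.108). Without CML-TKI 1, the fitted change of Sox18 was -7.60, with all remaining CML-TKI libraries at 0.

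Stromal markers were uneven between the libraries as well. The summed level of 9 stromal markers was 70.4, 33.4, 864.5 and 275.9 CPM in CML libraries 1, 2, 3 and 5 and 392.3, 16.01, 254.8 and 13.4 CPM in CML-TKI libraries 1 to 4. Cxcl12, the niche chemokine, had 33.96, 6.33, 150.3 and 184.1 CPM in the CML libraries and 0.755, 0, 47.9 and 1.29 CPM in the CML-TKI libraries. Single genes made up much of some sums. Pdgfra had 315.9 CPM in CML-TKI 1, and Col1a1 and Col1a2 had 393.2 and 274.2 CPM in CML 3. Of the 6 stromal markers tested, 0 passed edgeR's threshold, with 1 higher and 1 lower at an unadjusted p under 0.05 and 0 by DESeq2 and limma-voom. Over all genes, 13.7% were higher and 12.1% lower at an unadjusted p under 0.05, against 9.89% and 8.6% by DESeq2 and 10.5% and 11% by limma-voom at their adjusted threshold. The part of these cells in the levels of Flt4, Cdh5, Kdr and the other genes was not tested. The log2 fold changes without CML 3 and CML 5 were -3.55 for Tek, -3.41 for Tie1, -3.25 for Esam, -2.33 for Eng, -1.97 for Procr and -6.84 for Chst2.

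**Figure D3:**
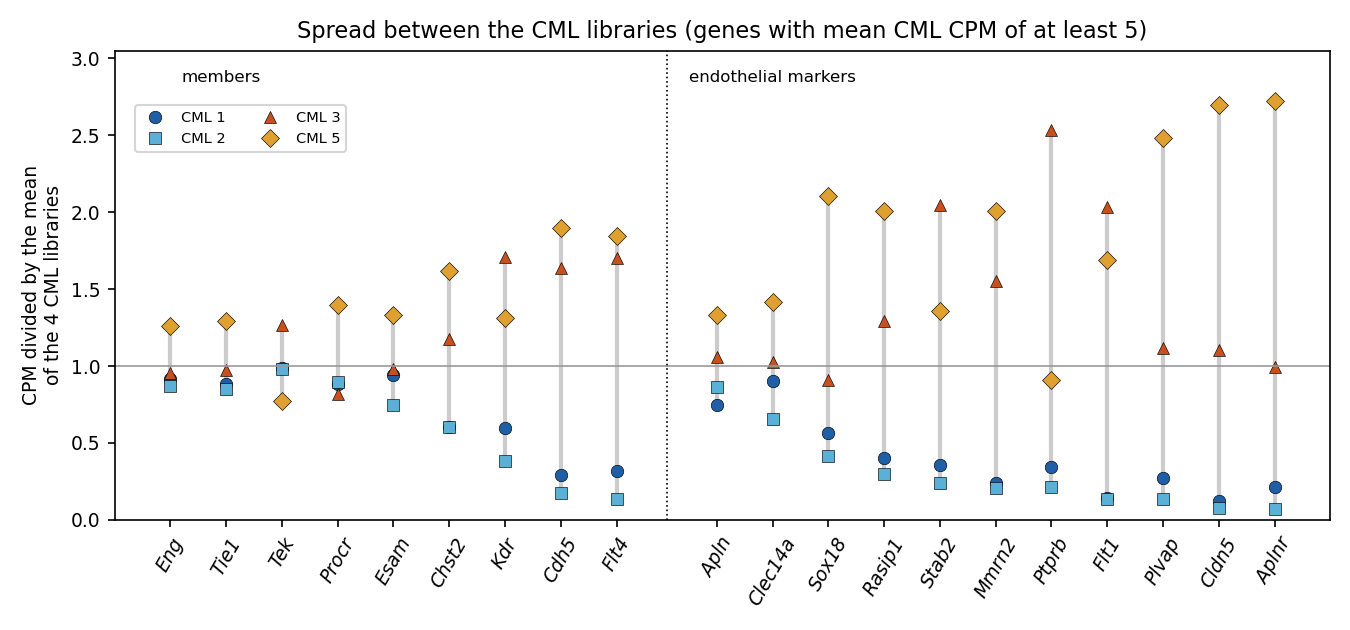
CPM in each CML library divided by the mean of the 4 CML libraries, for the 9 genes described here (left of the dotted line) and 11 endothelial markers (right), all with a mean CML level of at least 5 CPM. Grey bars span the lowest to the highest library. Eng, Tie1, Tek, Procr and Esam stay between 0.5 and 1.5, while Kdr, Cdh5 and Flt4 spread more widely, with CML 3 and CML 5 on top. For Kdr the spread of 4.49 times is below that of 9 of the 11 endothelial markers.

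Markers of other blood lineages also differed between the groups. Granulocyte and monocyte markers summed to between 373.7 and 537.9 CPM in CML and between 2336 and 12383 CPM in CML-TKI, where CML-TKI 1 was the lowest library. Of these markers, 13 of 14 rose past edgeR's threshold. Of all genes tested, 6.29% rose and 3.93% fell past it. Megakaryocyte markers, several of which stem cells also express, summed to 861.8 to 1275 CPM in CML and 58.2 to 625.2 CPM in CML-TKI. At an unadjusted p under 0.05, 5 of 8 were lower, with 4 by DESeq2 and 4 by limma-voom, and 0 were higher. By edgeR, 2 of 8 fell past the threshold, Gp9 and Itga2b. Itga2b did not pass in 5 of the 8 fits that leave out 1 library (adjusted p up to 0.0698 by edgeR), and neither passed with CML 1 to 3 summed (adjusted p = 0.0962 for Gp9 and 0.165 for Itga2b). Erythroid markers summed to 174.5 to 215.5 CPM in CML and 220.8 to 32644 CPM in CML-TKI, the highest value being that of CML-TKI 3. Of 7 tested, 1 rose, Tfrc, though not with CML 1 to 3 summed (adjusted p = 0.131 by edgeR). At an unadjusted p under 0.05, 4 were higher, with 1 by DESeq2 and 1 by limma-voom, and 0 were lower. Lymphoid markers summed to 9.98 to 26.6 CPM in CML and 16.98 to 314.7 CPM in CML-TKI, and the 1 of 8 that could be tested did not pass by edgeR but passed, as higher, at an unadjusted p under 0.05 and by DESeq2 and limma-voom. The part of these cells in the levels of the 10 genes was not tested.

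Ligands, partners and signalling genes of the same pathways, which are none of the 10 genes, were counted in the fit over all genes. Over all genes tested, 1220 (10.2%) passed the threshold in either direction. Of 104 such genes, 93 had a row and 74 were tested, of which 7 fell (9.46%, against 3.93% of all genes tested) and 6 rose (8.11%, against 6.29%), with a median log2 fold change of -0.31. Leaving out 1 library at a time gave between 3 and 19 lower and between 2 and 9 higher genes, the highest counts being those without CML-TKI 1. Leaving out CML 1, CML 2 or CML 3 each gave 3 lower and 2 higher genes. With CML 3 and CML 5 both left out, 1 fell and 1 rose. Of these 13 genes, 8 did not pass in at least 1 such fit, and those that passed whichever single library was left out included Nrp1, Smad3, F2rl3 and F2r. With CML 1, 2 and 3, which differ least from one another, summed to 1 library, 1 pathway gene was lower and 1 higher, F2r (adjusted p = 0.046) and Nrp1 (adjusted p = 0.0385). Smad3 and F2rl3 then did not pass (adjusted p = 0.0685 and 0.0586). All p-values below are Benjamini-Hochberg adjusted over all genes in the quasi-likelihood fit of edgeR, and each range given for one is over the 8 fits that leave out 1 library.

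In the Tie and VEGF receptor pathway, 2 of 17 tested genes fell and 2 rose by edgeR. At an unadjusted p under 0.05, 5 were lower and 3 higher, with 3 and 3 by DESeq2 and 5 and 2 by limma-voom. Angpt1, the activating ligand of TEK, had 585.8, 595.6, 676.9 and 218.4 CPM in CML libraries 1, 2, 3 and 5 and 132.8, 12.6, 20.7 and 47.0 CPM in CML-TKI libraries 1 to 4. The groups did not overlap, and Angpt1 fell by 3.25 (standard error 0.70, adjusted p = 0.0175, range 0.00121 to 0.0555, not passing without CML 1, CML 2, CML 3 or CML-TKI 4). Dok2, an adaptor recruited to active TEK, fell by 1.85 (adjusted p = 0.0228, range 0.0158 to 0.0677, not passing without CML 1, CML 2, CML 3, CML 5 or CML-TKI 2).

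Nrp1, a VEGF and semaphorin co-receptor, had 1.92 to 14.02 CPM in CML and 68.5 to 214.3 CPM in CML-TKI and rose by 3.97 (standard error 0.63, adjusted p = 0.00435, range 0.00308 to 0.0229). Plxnd1, a semaphorin receptor, rose by 1.42 (adjusted p = 0.049, range 0.0382 to 0.145, passing only without CML 5 or CML-TKI 3). Vegfa, Vegfc and Angpt2, which encode ligands of KDR, FLT4 and TEK, did not pass the threshold, with log2 fold changes of 0.52, -2.40 and 0.85 and adjusted p = 0.343, 0.183 and 0.426. The value of Angpt2 was 0.097 without CML-TKI 4. Flt1 was not tested because of low counts.

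Among genes of the endoglin and BMP/TGF-beta receptor pathway, 1 of 19 tested fell and 2 rose by edgeR. The balance depended on the rule, with 5 lower and 4 higher at an unadjusted p under 0.05, 5 lower and 1 higher by DESeq2 and 5 lower and 2 higher by limma-voom. Smad3, which carries TGF-beta signals to the nucleus, had 179.3 to 215.99 CPM in CML and 39.4 to 83.97 CPM in CML-TKI and fell by 1.82 (standard error 0.26, adjusted p = 0.00281, range 3.72e-04 to 0.0149). Id1 and Id2, BMP target genes that encode inhibitors of differentiation, rose by 3.87 and 3.98 (adjusted p = 0.0139 and 0.0336), with 83.2 and 84.7 CPM in CML-TKI 1 against 13.1 to 14.8 and 4.91 to 8.31 CPM in the other CML-TKI libraries. Neither passed without CML 1, CML 2 or CML 3, nor did Id2 without CML 5, and over the 8 fits adjusted p reached 0.055 for Id1 and 0.108 for Id2. Without CML-TKI 1, the fitted changes were 2.67 for Id1 and 1.91 for Id2. Acvrl1, the ALK1 receptor that endoglin assists, had a log2 fold change of 1.27 with adjusted p = 0.526, and of -0.25 without CML-TKI 1. Gdf2, which encodes BMP9, was not analysed here.

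In the protein C and thrombin receptor pathway, 2 of 6 tested genes fell by edgeR and 0 rose, with 1 higher at an unadjusted p under 0.05 and 0 higher by DESeq2 and limma-voom. F2r encodes PAR1, the receptor that activated protein C cleaves when bound to EPCR. It had 217.2 to 297.8 CPM in CML and 20.7 to 67.9 CPM in CML-TKI and fell by 2.67 (standard error 0.36, adjusted p = 0.00218, range 2.75e-04 to 0.0102). F2rl3, the gene of PAR4, had 118.8 to 148.7 and 3.39 to 19.9 CPM and fell by 3.36 (standard error 0.52, adjusted p = 0.00407, range 0.00216 to 0.0201). Thbd, which encodes thrombomodulin, had a log2 fold change of -0.61 and adjusted p = 0.378. Its log2 fold change was -0.40 without CML 5 and -0.36 without CML-TKI 1. Proc was not analysed here.

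In the adrenomedullin pathway, 1 of 3 tested genes fell by edgeR and 0 rose, also at an unadjusted p under 0.05 and by DESeq2 and limma-voom. Calcrl, the receptor that RAMP2 accompanies, had 50.9 to 128.6 CPM in CML and 20.9 to 52.3 CPM in CML-TKI, and it fell by 1.49 (standard error 0.38, adjusted p = 0.0338, range 0.0225 to 0.107, not passing without CML 1, CML 2, CML 3, CML-TKI 2 or CML-TKI 4). Ramp1, which encodes another accessory protein of that receptor, had 55.8 to 83.997 CPM in CML and 33.8 to 100.3 CPM in CML-TKI. Adm was not analysed here.

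For the synthesis of sulfated selectin ligands, 1 of 15 tested genes fell and 2 rose by edgeR. The other rules gave more lower than higher genes, with 5 and 4 at an unadjusted p under 0.05, 3 and 2 by DESeq2 and 5 and 4 by limma-voom. Chst7, another sulfotransferase gene, had 2.68 to 7.68 CPM in CML and 0.755 CPM in CML-TKI 1 with 0 in the others, and it fell by 4.29 (standard error 1.06, adjusted p = 0.0304, range 0.00899 to 0.0988, passing only without CML-TKI 1 or CML-TKI 3). Without CML-TKI 1, its fitted change was -7.74, with all remaining CML-TKI libraries at 0. Selplg, the gene of the selectin ligand PSGL-1, rose by 1.44 (adjusted p = 0.027, range 0.00107 to 0.0923, passing only without CML-TKI 1).

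Of 14 tested junction partners of VE-cadherin and ESAM, 0 passed edgeR's threshold in either direction, and their median log2 fold change was -0.31. At an unadjusted p under 0.05 there was 1, a lower gene, while DESeq2 called 1 lower and limma-voom 4 lower. Ctnnb1, which encodes beta-catenin, had 606.1 to 610.7 CPM in CML and 397.4 to 540.96 CPM in CML-TKI (log2 fold change -0.36, adjusted p = 0.255). Ctnnb1 was named after its values were seen.

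Of 20 other tested genes that hematopoietic stem cells share with endothelium, 6 fell and 0 rose past edgeR's threshold, with a median log2 fold change of -2.24. At an unadjusted p under 0.05 edgeR gave 15 lower and 0 higher, and DESeq2 gave 10 and limma-voom 15 lower with 0 higher, where 12.1%, 8.6% and 11% of all genes were lower by these rules. Lmo2, Gata2, Erg, Tal1 and Fli1, which encode transcription factors and a cofactor of blood and vessel development, and Egfl7, an endothelial secreted factor, were the 6. Lmo2 had 619.5 to 750.6 CPM in CML and 108.99 to 156.9 CPM in CML-TKI and fell by 2.31 (standard error 0.20, adjusted p = 5.41e-04, range 1.74e-04 to 0.00461). Gata2 fell by 2.32 (adjusted p = 0.00418, range 0.00269 to 0.0177, and 0.0558 with CML 1 to 3 summed), and Egfl7 fell by 2.69 (adjusted p = 0.0361, range 0.00263 to 0.107) but passed only without CML-TKI 1 when 1 library was left out. Erg, Tal1 and Fli1 fell by 2.13, 1.76 and 1.05, and these 3 were named after their values were seen.

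Pecam1, the pan-endothelial adhesion molecule also found on blood cells, had a log2 fold change of -0.037 with a standard error of 0.28 and adjusted p = 0.954, and its sign changed with the libraries used. Vwf, the von Willebrand factor gene of endothelium, platelets and platelet-biased stem cells, had 736.04 to 792.9 CPM in CML and 5.54 to 234.9 CPM in CML-TKI (log2 fold change -2.93, adjusted p = 0.0562, range 0.0323 to 0.136, passing without CML-TKI 2 or CML-TKI 4). Emcn, an endothelial sialomucin of stem cells, had a log2 fold change of -3.24 (adjusted p = 0.0586, range 0.00384 to 0.157, passing without CML-TKI 1 at a log2 fold change of -5.23), and Cd34 one of -0.95 (adjusted p = 0.0718, range 0.0113 to 0.165, passing without CML-TKI 4). Ly6a, which encodes Sca1, had -1.12 (adjusted p = 0.373, range 0.0117 to 0.534, passing without CML-TKI 1 at -2.52, and -0.73 without CML-TKI 4), and Flt3 had 0.65 (adjusted p = 0.522). Of the shared genes, 15 were below the CML range in all CML-TKI libraries, as were 13.1% of all genes tested, with Vwf, Emcn and Cd34 among the 15 and Pecam1 and Ly6a outside them.

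**Figure D4:**
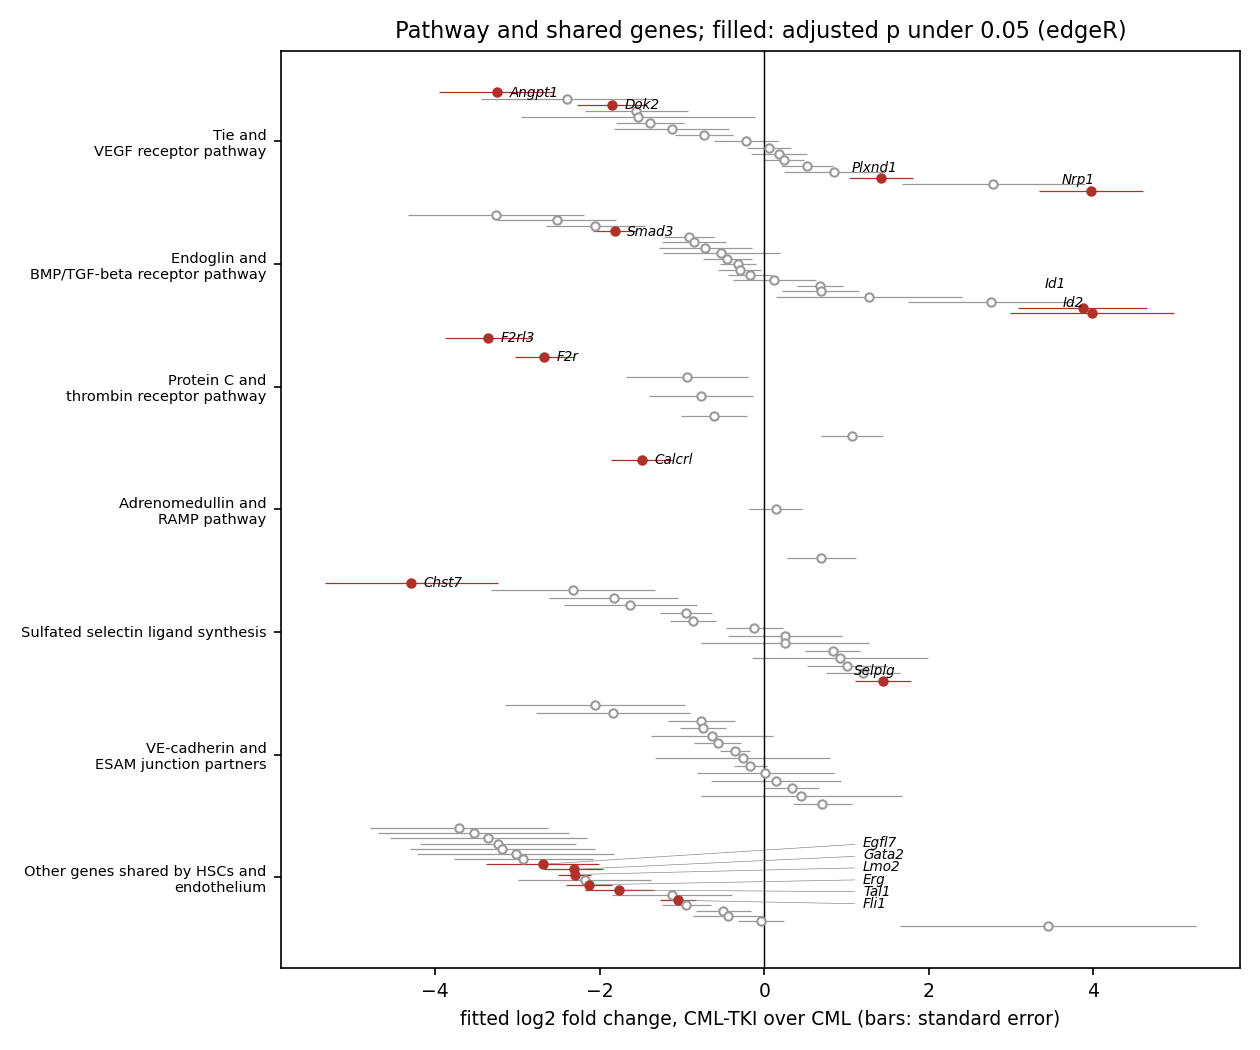
Fitted log2 fold change of CML-TKI over CML for tested genes of the 6 pathway lists and of the list of shared genes, with the standard error as a horizontal bar. Filled red points passed the adjusted threshold of 0.05 of edgeR and are named. The shared genes lie mostly left of 0, and the junction partners have no filled point.

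Over the 8 libraries, the genes whose log2 CPM was most like the mean profile of the 9 tested genes were Rhof (Pearson r = 0.991), Pglyrp2 (r = 0.990), Pgghg (r = 0.989), Coq8a (r = 0.988) and Usp30 (r = 0.987), out of 9290 genes compared. The correlation runs over libraries of both groups and so includes the difference between the groups. Rhof had 51.8 to 91.5 CPM in CML and 2.77 to 19.2 CPM in CML-TKI. CML-TKI 1 was the highest and CML-TKI 2 the lowest CML-TKI library for each of these 5 genes. Because they were picked for likeness to the profile of the 9 genes, this shared order is no separate result.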

How the data were processed

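Sequencing libraries were of the Nextera XT type, from RNA purified on RNeasy Plus columns. The authors used STAR 2.6.1d for alignment to mm10 and Partek Flow (Partek 8.0 in the submitters' processing notes) for quantification against RefSeq transcripts. The deposited table holds estimated counts for each gene, not normalized. 0 columns were left unused. Counts were rounded to integers. edgeR 4.0.16 (R 4.3.3) was run with filterByExpr (minimum count 10, minimum total 15), TMM normalization and the robust quasi-likelihood test on all 4 CML and 4 CML-TKI libraries, with Benjamini-Hochberg adjustment over 11937 genes and 0.05 as the threshold. The standard error of a log2 fold change was taken as its size over the root of F. A prior count of 2 was added for log2 CPM. The scripts were tested on simulated data.

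The genes and lists were chosen with earlier results of these data known. Named were the 10 genes, fixed ligands and partners, the gate genes, up to 3 genes per list and direction past the threshold with the largest change, and the 5 genes most like the mean profile. Other genes were named after their values were seen. Lengths came from GENCODE M21 transcripts and coordinates and promoters from RefSeq (GRCm38). Ratios of summed counts carry exact 95% intervals. Counting was not stated to use strand, so reads of overlapping antisense genes cannot be told apart. Alternatives were DESeq2 1.42.0, limma-voom (limma 3.58.1) with quality weights, other normalizations, no filter, a prior count of 0.5, a replicate block and libraries left out or summed. Pairs among CML 1, 2 and 3 differed beyond counting noise in 24.3% to 26.5% of genes, pairs of these with CML 5 in 66.2% to 67.9% and CML-TKI pairs in 57.9% to 71.1%. CML 1 to 3 thus stand closer together than any other libraries. Each was kept as a sample because the labels list it as one, and summing CML 1 to 3 was among the alternatives. 1 gene of the pathway lists is counted but not reported here by name or in the plot.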

Additional observations from a re-analysis of the deposited data

Results flagged for a closer look

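In each group of 4 libraries, the highest or lowest library was compared with the others by Dixon's test for 60 measures, of which 11 stood out, where about 1 in 20, or 3, are expected by chance. Among the 10 genes, CML-TKI 1 stood out for Flt4 (1.51 CPM), Ramp2 (2.45 CPM) and Chst2 (0.189 CPM), each with 0 in the other CML-TKI libraries. With 3 libraries at 0 any value of the fourth stands out, so these 3 say nothing beyond the zeros, and the Chst2 level is a single count. CML-TKI 3 stood out for Kdr, at 46.8 CPM, and CML 5 for Procr, at 24.6 CPM against 14.4 to 15.7 CPM in the other CML libraries. Of the partner genes, Flt1 (25.9 CPM) and Acvrl1 (26.2 CPM) stood out in CML-TKI 1, Angpt2 (34.4 CPM) in CML-TKI 4, Pecam1 (76.2 CPM) in CML 3 and Vwf (736.04 CPM, below the others) in CML 5. The summed erythroid markers stood out in CML-TKI 3, at 32644 CPM.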

How the results depend on the processing

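The 8 of 10 genes below the CML range were 8 to 10 under the alternatives, a count that cannot fall when libraries are left out and so says nothing about stability. Of 189 refitted fold changes of the 9 tested genes, 0 changed sign. For genes below the CML range, leaving out or summing libraries could hardly reverse the sign, so for them this says nothing about stability. Of the same values, 26 moved by more than 1 SD (the pooled SD of log2(CPM + 1) within groups, not the standard error). The median fold change of -3.55 was -7.68 (log2) without CML 3, CML 5, CML-TKI 1 and CML-TKI 3, and -5.24 to -3.12 when 1 library was left out. Depth limits low genes most in CML-TKI 3. Leaving out sets of libraries was chosen after seeing the data, and the cause of each change below was not tested.

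Of the 11937 genes, 1220 passed edgeR's threshold. The count, with the lower and higher pathway genes beside it (7 and 6 in the fit reported), was 122 with 1 and 1 when CML 1 to 3 were summed, 97 with 1 and 1 without CML 3 and CML 5, and 2 with 0 and 0 without CML-TKI 3 as well. It was 2157 with 15 and 6 by DESeq2 and 2563 with 22 and 8 by limma-voom. Without CML 3, CML 5, CML-TKI 1 and CML-TKI 3, it was 1643 with 15 and 6. Leaving out 1 library gave 505 (CML 1) to 2504 (CML-TKI 1) genes, with 3 to 19 lower and 2 to 9 higher pathway genes. Of 856 refitted values of 43 other named genes, 633 kept their side of the threshold, 194 lost it, 16 gained it and 13 changed sign.

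Library numbers 1 to 3 are shared by both groups. For same-numbered libraries, deviations from the group mean had correlations of -0.0416, 0.0972 and 0.0934 across genes. Such a check on 3 pairs cannot decide whether the libraries are paired. A replicate block on libraries 1 to 3 gave 193 genes with 2 lower and 0 higher pathway genes, against 589 with 6 and 3 for the same libraries without the block. CML-TKI 2 and CML-TKI 3 correlated best with the CML library of their own number, while CML-TKI 1 did so with CML 3 (0.0992). With the block Angpt2 turned to -0.18 and Flt3 to -0.37, and without it on the same libraries to -0.18 and -0.30.

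Leaving out 1 library, Acvrl1 ran from -0.25 (without CML-TKI 1) to 1.75 and Flt3 from -0.34 (without CML-TKI 4) to 0.96. Thbd turned to 0.35 without CML 3, CML 5, CML-TKI 1 and CML-TKI 3. Pecam1, near 0 throughout, turned to 0.0065 with CML 1 to 3 summed, 0.083 without CML 3 and CML 5, 0.024 without CML-TKI 3 as well, 0.31 without CML-TKI 1 as well, 0.095 without CML 3 and 0.16 without CML-TKI 1.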
